A study of Homo sapiens with 15 samples.

Results

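The comparison set the TSS (transcription start site) values of PHC1-dFCS, a PHC1 lacking its FCS part, beside those of PHC1. It covered every gene row of the deposited ChIP table, 14432 of 14432, and no gene was left out. The samples were 2 ChIP-seq libraries from HEK293T T-Rex cells carrying a PHC1-dFCS transgene, 2 from cells of the same line carrying a PHC1 transgene, and 1 input library from cells with no transgene. Both transgene products were captured on streptavidin beads from cells grown in hygromycin and fixed in 1% formaldehyde for 6 minutes. HEK293T is an established human embryonic kidney line with an abnormal karyotype, and T-Rex is its variant made for tetracycline-controlled transgenes. The labels give neither the promoter of the transgenes, nor their protein levels, nor whether each line was a single clone, and a streptavidin capture from cells with no transgene is not analysed here. H3K27me3, EZH2, H3K4me3 and RNA polymerase II (RNAPII) ChIP came from cells with no transgene, with 1 library each, and nuclear RNA-seq and PHC1 PAR-CLIP had 2 libraries each. These libraries entered as gene properties only.

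PHC1 is a polyhomeotic subunit of Polycomb repressive complex 1 (PRC1). In PRC1 a RING-type ubiquitin ligase marks histone H2A, CBX subunits bind H3K27me3, the mark placed by PRC2, and polyhomeotic proteins link complexes through their SAM domain. The FCS zinc finger of polyhomeotic proteins is known as an RNA-binding domain. H3K4me3 is the histone mark of active promoters.

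The authors joined the replicates of each protein into 1 score per gene, so each gene has 1 PHC1-dFCS value and 1 PHC1 value. All PHC1-dFCS and PHC1 values below are therefore the authors' pooled values. No replicate spread, test or p-value could be had for any difference, and gene-to-gene spread is given in its place as a description. The scores had the input subtracted. The input reads could be recovered, and all values below are before that subtraction, in reads per 10M reads of a library. The relative log2 ratio is log2 of PHC1-dFCS over PHC1, with 0.05 reads per 10M added to each, less its median over all genes.

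RefSeq promoters of genes with the largest differences in the upper range of signal are shown as sequence, because the decile medians of the ratio varied with promoter base composition (values below). MYOG, TIAM1 and PEX5 had the first, the third and the fourth highest relative ratios by the naming rule. MMP13, between them, had no promoter sequence to print. HCG11, CCDC190 and IFI44 had the lowest. Each sequence is the 250 bases before the RefSeq start of the gene, 5′ to 3′ on the gene's strand, in build GRCh38.p14, and capitals mark CG pairs. The regions are chr1:203086013-203086262 (minus strand) for MYOG, chr21:31559088-31559337 (minus) for TIAM1, chr12:7188403-7188652 (plus) for PEX5, chr6:26521456-26521705 (plus) for HCG11, chr1:162861176-162861425 (minus) for CCDC190 and chr1:78649539-78649788 (plus) for IFI44. The RefSeq start need not be the TSS of the deposited table, which is in hg19. For CCDC190 the shift between the 2 starts is smaller than at PEA15 and MYOG, which lie on either side of it. Its printed bases thus lie away from the TSS that was measured.
MYOG: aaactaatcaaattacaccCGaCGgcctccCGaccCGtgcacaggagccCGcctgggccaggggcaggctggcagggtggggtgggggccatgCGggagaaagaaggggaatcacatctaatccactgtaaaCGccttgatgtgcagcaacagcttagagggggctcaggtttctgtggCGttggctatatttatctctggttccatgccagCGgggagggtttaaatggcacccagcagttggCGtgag
TIAM1: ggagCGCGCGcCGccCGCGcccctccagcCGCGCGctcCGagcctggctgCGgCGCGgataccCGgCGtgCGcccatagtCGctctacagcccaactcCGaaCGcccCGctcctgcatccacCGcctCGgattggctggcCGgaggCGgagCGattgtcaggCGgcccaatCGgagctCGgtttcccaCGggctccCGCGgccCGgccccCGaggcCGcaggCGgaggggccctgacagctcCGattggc
PEX5: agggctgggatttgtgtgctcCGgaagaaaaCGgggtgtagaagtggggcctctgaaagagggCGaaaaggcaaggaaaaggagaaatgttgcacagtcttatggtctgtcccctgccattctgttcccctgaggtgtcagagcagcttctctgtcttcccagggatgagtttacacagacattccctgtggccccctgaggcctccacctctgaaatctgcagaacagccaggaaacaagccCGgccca
HCG11: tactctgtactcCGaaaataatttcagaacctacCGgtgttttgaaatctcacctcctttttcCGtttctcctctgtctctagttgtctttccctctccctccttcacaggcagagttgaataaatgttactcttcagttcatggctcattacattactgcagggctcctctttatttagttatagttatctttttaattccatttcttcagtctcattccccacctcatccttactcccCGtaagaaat
CCDC190: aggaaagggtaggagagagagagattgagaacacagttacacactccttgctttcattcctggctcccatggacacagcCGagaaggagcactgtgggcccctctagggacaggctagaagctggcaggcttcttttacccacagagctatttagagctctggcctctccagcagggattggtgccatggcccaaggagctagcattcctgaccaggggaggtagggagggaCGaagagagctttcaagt
IFI44: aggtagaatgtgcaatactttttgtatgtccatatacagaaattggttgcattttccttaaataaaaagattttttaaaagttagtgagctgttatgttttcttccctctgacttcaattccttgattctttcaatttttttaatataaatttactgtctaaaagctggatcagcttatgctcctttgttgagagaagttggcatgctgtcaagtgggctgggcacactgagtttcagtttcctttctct
CG pairs numbered 10, 36 and 4 in the MYOG, TIAM1 and PEX5 sequences, and 4, 2 and 0 in those of HCG11, CCDC190 and IFI44. The sets overlap at 4 pairs, and AGO1, the next lowest gene by ratio, had 25. At AGO1 the shift between the starts also differs from that at IFI44 on the same chromosome. The CG pairs of CCDC190, and perhaps of AGO1, therefore do not describe the TSS that was measured.

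Across all genes, TSS values were higher for PHC1-dFCS. The median gene had 6.91 reads per 10M for PHC1-dFCS and 5.85 for PHC1, beside 5.68 in the input. The middle 50% of genes lay between 6.02 and 7.97 for PHC1-dFCS and between 5.00 and 6.80 for PHC1. PHC1-dFCS exceeded PHC1 at 11462 genes, or 79.4%. The median log2 ratio, the global offset, was 0.25, a 1.19-fold higher PHC1-dFCS value, with the middle 50% of genes between 0.045 and 0.45. Neither protein stood far above input at most promoters. Values of at least 2 times the input were found at 494 genes (3.42%) for PHC1-dFCS and at 81 genes (0.561%) for PHC1. These counts were taken before the offset was removed. A column that is higher at most genes puts more of them past a fixed cut, and counts without the offset are not given.

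The columns also held a shared low value. In each of the 5 decoded libraries (4 marks and input) the lowest value was exactly 10 reads, so 10 reads were either added to, or set as a floor under, every count. At the 29 genes where all 5 were at 10 reads, the pooled columns also took 1 shared low value, 3.54 reads per 10M for PHC1-dFCS and 2.79 for PHC1. Their difference, 0.743, stands beside a median difference between the columns of 1.09, and is part of every gene's difference if 10 reads were added but not if they were a floor. With each shared value removed and a pseudocount of 0.5, the offset was 0.13. How much of the remaining offset reflects the amount captured, the depth or the background of the libraries was not tested.

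**Figure D1:**
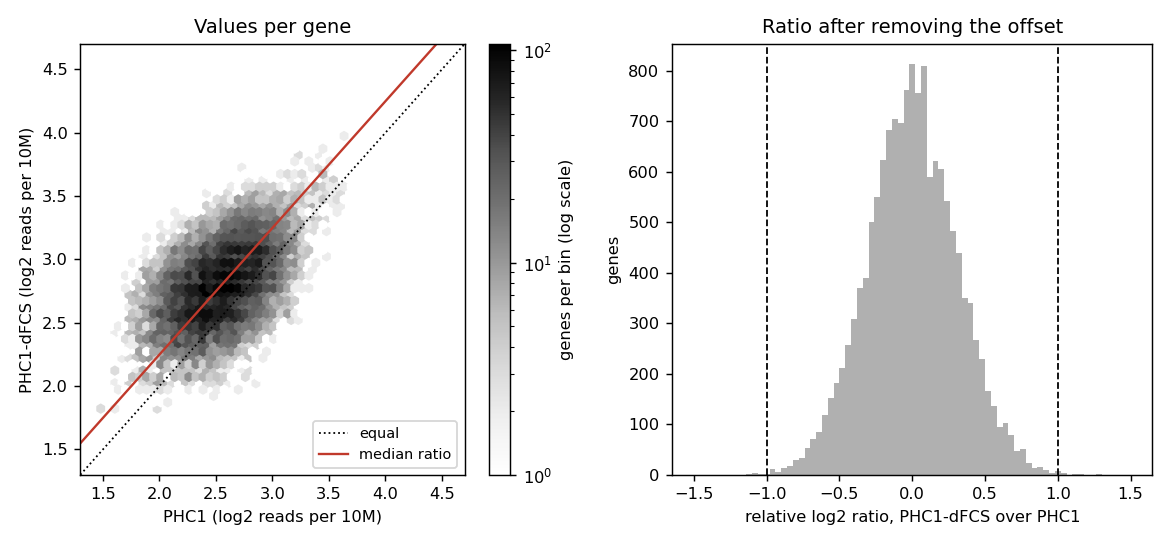
Left, log2 reads per 10M of PHC1-dFCS against PHC1 for each gene off chromosome Y below 25 reads per 10M (grey shade, genes per bin on a log scale), with equality dotted and the median ratio in red. Right, the relative log2 ratio of all genes, with dashed lines at 2-fold. Most genes lie above equality, and few lie beyond the dashed lines.

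After the offset was removed, few genes were far from 0. The relative log2 ratio had an SD over genes of 0.31, ran from -1.11 to 1.29, and had its middle 50% between -0.20 and 0.20. A 2-fold higher relative value was reached by 10 genes, 0.0693% of all 14432, and a 2-fold lower one by 7 genes, 0.0485%. With the shared low values removed and a pseudocount of 0.5, the counts were 574 higher and 629 lower. At 1.5-fold, 438 genes were higher (3.03%) and 439 lower (3.04%), tails whose balance is partly set by centring on the median. Across genes PHC1-dFCS and PHC1 had a Spearman's rho of 0.50, while PHC1-dFCS and input had 0.41 and PHC1 and input 0.43 (14432 genes, which share copy number and the recovered input, and are not replicates). If the shared low values stood for 10 reads in each of 2 libraries, the median gene would hold about 19.5 reads per PHC1-dFCS library and 20.9 per PHC1 library. Counting error alone would then give log2 ratios an SD of 0.23 if 10 reads were added, or 0.32 if 10 reads were a floor. The observed SD of 0.31 lies between these. Genes are therefore named below as the ends of a distribution and not as changed genes.

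The 10 highest and 9 lowest ratios were taken among genes whose mean of both columns was at or above the median. MYOG, a myogenic transcription factor (hg19 chr1:203052257-203055166), had 11.0 reads per 10M for PHC1-dFCS and 3.76 for PHC1, with 6.71 in the input, and a relative log2 ratio of 1.29. It is silent here, with 0 and 1 nuclear RNA reads in the 2 libraries. TIAM1, a guanine nucleotide exchange factor for RAC1 (chr21:32490736-32932290), had 9.73 for PHC1-dFCS and 3.63 for PHC1, and its input of 14.7 lay above both. Unlike MYOG it is transcribed, with 432 and 418 CPM (counts per 1e6) of nuclear RNA and 70.8 reads per 10M of H3K4me3. PEX5, the import receptor for peroxisomal enzymes (chr12:7341759-7371169), had 11.9 for PHC1-dFCS and 4.57 for PHC1. MMP13, a collagenase (chr11:102813721-102826463), had 9.36 for PHC1-dFCS and 3.47 for PHC1.

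At the same end, PEA15, a death effector domain protein, had 11.3 for PHC1-dFCS and 4.34 for PHC1. PTPRH, a receptor tyrosine phosphatase, had 11.0 and 4.47 in the same order, and CHSY1, a chondroitin synthase, had 9.05 and 3.75. SPAG1, DSC2 (a desmosomal cadherin) and KIF17 (a kinesin motor) completed the 10, with relative log2 ratios of 1.04, 1.00 and 0.98. In each of the 10 the PHC1 value was under the input value at the same TSS. In 9 of the 10 the PHC1-dFCS value was above the input, TIAM1 being the exception. Choosing genes by a high ratio favours low PHC1 and high PHC1-dFCS values, so these counts follow in part from the choice. Over all genes, PHC1-dFCS was above the input at 75.7% and PHC1 at 51.6%.

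The low end held silent and active genes too. HCG11, a lncRNA gene (hg19 chr6:26521934-26527612), had 5.50 reads per 10M for PHC1-dFCS and 10.0 for PHC1, a relative log2 ratio of -1.11. Its promoter carried 80.1 reads per 10M of H3K4me3. CCDC190 (chr1:162794248-162838605) had 6.20 for PHC1-dFCS and 10.7 for PHC1. IFI44, an interferon-induced gene (chr1:79115477-79129763), had 5.09 for PHC1-dFCS and 8.79 for PHC1. AGO1, an Argonaute protein of small RNA silencing (chr1:36335409-36389899), had 5.32 for PHC1-dFCS and 9.06 for PHC1, with 119 and 125 CPM of nuclear RNA. MED1, a Mediator subunit, had 5.13 for PHC1-dFCS and 8.50 for PHC1, and NUP155, a nuclear pore protein, had 5.90 and 9.64 in the same order. REP15, the interferon gene IFNL1 and LINC01692 had relative log2 ratios between -0.98 and -0.95. PHC1-dFCS was under the input in 8 of these 9 genes, all but CCDC190, and PHC1 was above it in 8, all but NUP155. Choosing genes by a low ratio favours this pattern. Over all genes, PHC1-dFCS was above the input at 75.7% and PHC1 at 51.6%.

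**Figure D2:**
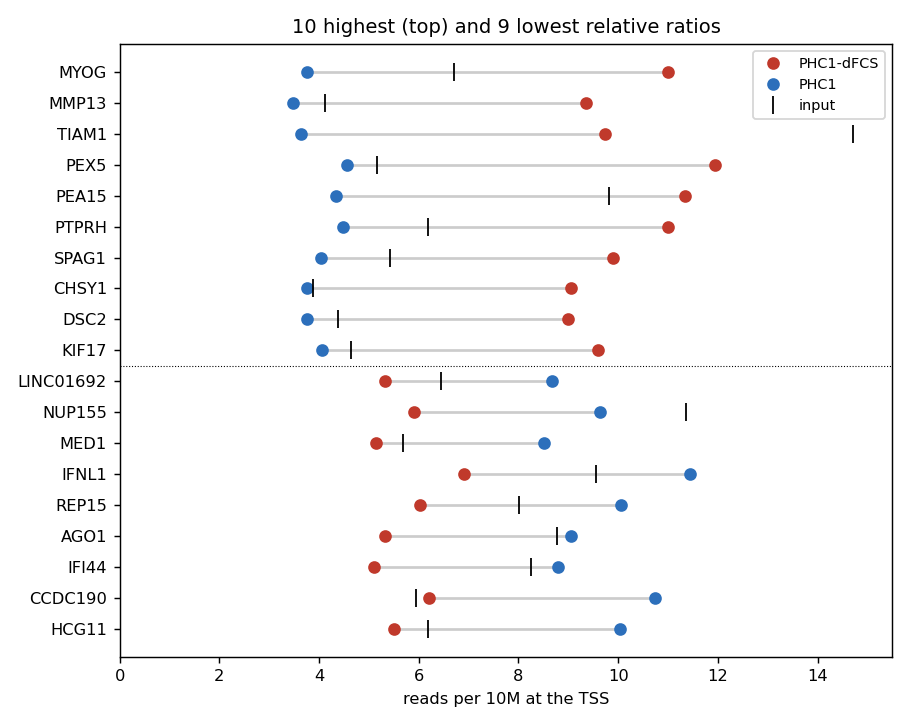
Reads per 10M at the TSS for PHC1-dFCS (red), PHC1 (blue) and input (black bar) in the 10 genes with the highest relative ratio, above the dotted line, and the 9 with the lowest. Values are single pooled values with no error. PHC1-dFCS spans 9.00 to 11.9 in the upper genes, where PHC1 spans 3.47 to 4.57.

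The genes with the most PHC1-dFCS over input were PURB (10.8 reads per 10M for PHC1-dFCS and 5.67 for PHC1), RPS7, HGC6.3, KCNE3, TEX10, MAPK8IP2, OCA2, COL9A1, NHLRC1 and PABPC1L2B. Those with the most PHC1 over input were BHMT (7.09 for PHC1-dFCS and 8.52 for PHC1), LINC00923, LOC148696, PAPLN, MISP3, FCRL6, CDHR1, LINC00654, CLK2P1 and SEMA6D. The 2 sets shared no gene, but sets of 10 drawn at random from 14432 genes would seldom share one either. All 20 had input values between 2.58 and 4.13, under the input median, and the PHC1-dFCS and PHC1 values over input reached at most 3.48 and 2.75 times. An input of 2.58 is the lowest value of that library, which is 10 reads.

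Promoters with active marks had slightly higher relative PHC1-dFCS. Genes were cut into deciles by each property. In the lowest decile by H3K4me3 over input, the median gene had 6.73 reads per 10M for PHC1-dFCS and 5.99 for PHC1, a relative log2 ratio of -0.064 (middle 50% of genes from -0.28 to 0.14). In the highest decile it had 7.62 for PHC1-dFCS and 6.25 for PHC1, a ratio of 0.034 (from -0.16 to 0.24). The change came as a step: the ratio was -0.052 in decile 4 and 0.023 in decile 5, whose median H3K4me3 over input was 0.60 and 2.24 on the log2 scale, and lay between 0.018 and 0.035 in the deciles above. RNAPII over input gave a steadier gradient, with 0.055 in the highest and -0.061 in the lowest decile. At 1.5-fold, 71 of 1443 genes in the highest RNAPII decile were higher (4.92%) and 27 lower, against 24 of 1444 higher (1.66%) and 62 lower in the lowest decile. Spearman's rho of the ratio was 0.12 with H3K4me3 and 0.13 with RNAPII over input (14432 genes). It was positive on 22 of 23 chromosomes for each mark. Here and below, the chromosomes share the same pooled columns and are not replicates, so such counts cover no library difference.

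By H3K27me3 the gradient had the opposite sign, and by EZH2 over input it was weak and not steady across deciles. For H3K27me3 over input the ratio was -0.037 in the highest decile (6.73 reads per 10M for PHC1-dFCS, 5.86 for PHC1) and 0.037 in the lowest (7.27 and 6.02 in the same order), with a rho of -0.073 that was negative on 22 of 23 chromosomes. For EZH2, the enzyme that places H3K27me3, the highest and lowest deciles had -0.0019 and 0.025, and rho was -0.034. Their difference, -0.027, was smaller than its half-width of 0.030, joined from the intervals of the 2 medians. The 284 promoters with EZH2 of at least 2 times the input had a median of 0.015. By the level of each mark, not divided by input, the gradients were steeper. The highest and lowest deciles had -0.068 and 0.059 for H3K27me3, with a rho of -0.11, and -0.035 and 0.049 for EZH2, with a rho of -0.080, and each rho was negative on 23 of 23 chromosomes. On deposited scores, in the 6903 genes where both were above 0, the highest minus the lowest decile over input was -0.55 for H3K27me3 and -0.42 for EZH2. These scores subtract the same input that divides the marks. Over all genes the median input was 7.74 in the lowest decile of each mark, and 4.65 (H3K27me3) and 4.13 (EZH2) in the highest. The size of these 2 spans is therefore tied to the input, and its part in them was not tested. Few promoters were strongly marked. H3K27me3 of at least 2 times the input without such H3K4me3 was found at 171 genes, with a median ratio of -0.047, and with H3K4me3 at 92 genes, with -0.042. H3K4me3 without H3K27me3 was found at 8924 genes, with 0.025, and neither mark at 5245 genes, with -0.052. The 86 promoters where both H3K27me3 and EZH2 passed 2 times the input had a median of 0.054, 6.91 reads per 10M for PHC1-dFCS and 5.57 for PHC1. The middle 50% of genes ran from -0.31 to 0.18 with H3K27me3 alone and from -0.26 to 0.15 with neither mark, so the classes overlapped over most of their range.

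Genes were next split by H3K4me3 and RNA together. Genes with H3K4me3 and nuclear RNA of at least 1 CPM (8632) had a median of 0.026. Those with H3K4me3 and less RNA (384) had -0.015. Without H3K4me3 the median was -0.053 in 1519 genes with that much RNA and -0.051 in 3897 genes with less. By nuclear RNA alone the highest decile had 0.016 (7.43 for PHC1-dFCS and 6.13 for PHC1) and the lowest -0.049 (6.55 and 5.73 in the same order), and rho was 0.11, positive on 23 of 23 chromosomes. RNA per kb of gene gave 0.013 and -0.055, with a rho of 0.094.

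Gene length had a weaker gradient. The longest decile, with a median length of 223 kb, had a median ratio of 0.020, and the shortest, with 2.12 kb, had -0.032, with a rho of 0.049. Of the 448 genes over 300 kb, 20 were at least 1.5-fold higher (4.46%) and 6 lower (1.34%), beside 3.03% and 3.04% of all genes. Protein-coding genes (12947) had a median of 0.0045, lncRNA genes (907) -0.038 and pseudogenes (517) -0.053.

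PHC1 RNA binding was taken as PAR-CLIP coverage per gene. PAR-CLIP crosslinks RNA to a protein through a photoreactive nucleoside, and its clusters mark bound RNA. The ratio was 0.023 in the highest decile of coverage and -0.037 in the lowest, with a rho of 0.080. Divided by nuclear RNA, in the 9529 genes with at least 5 per 1e6 of either, coverage gave the opposite sign: -0.0099 in the highest decile and 0.030 in the lowest, with a rho of -0.042.

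**Figure D3:**
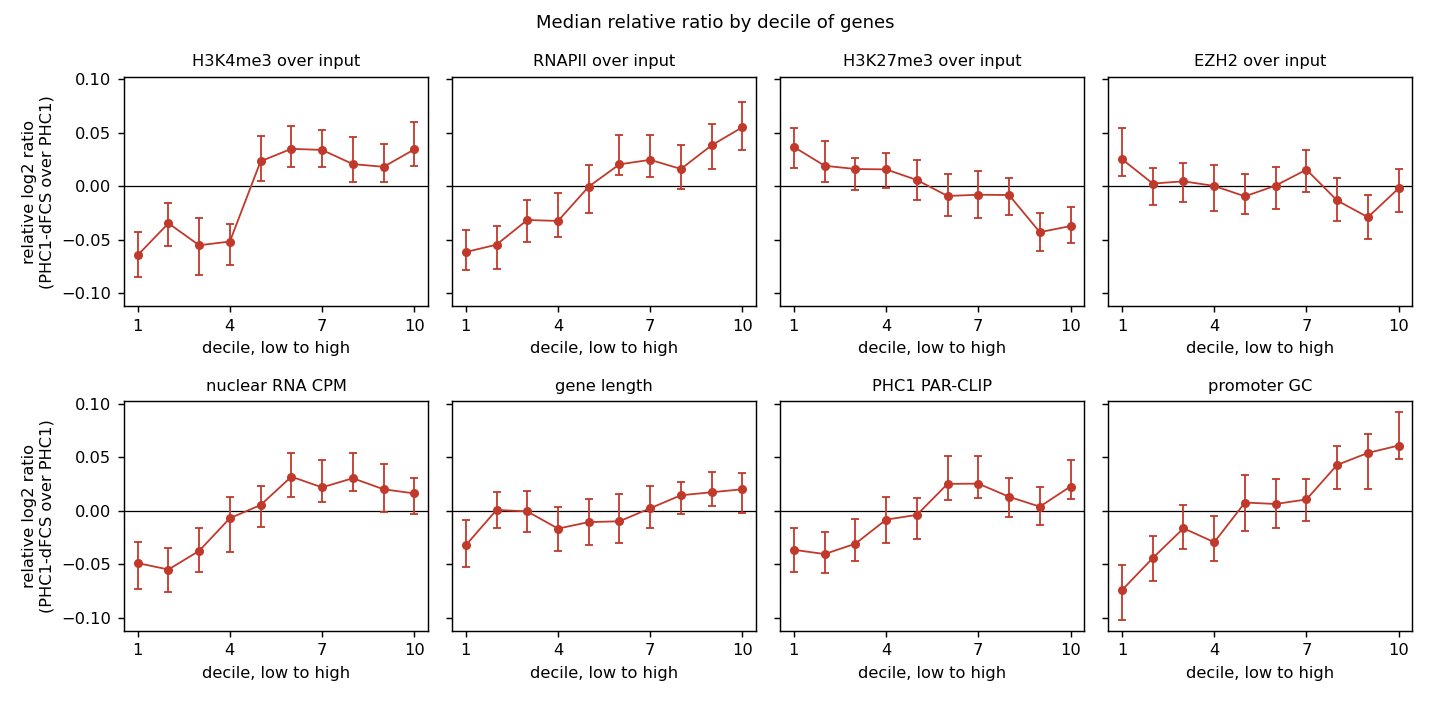
Median relative log2 ratio of PHC1-dFCS over PHC1 in deciles of genes, low to high, by 8 gene properties. Bars are 95% order-statistic intervals of the median over genes and cover no replicate error. The promoter GC panel, over 10309 protein-coding genes, runs from -0.074 in the lowest decile to 0.061 in the highest.

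The relative ratio was higher at promoters rich in GC. A RefSeq promoter sequence, 250 bases before to 50 after the start, was used for 10309 of 12470 protein-coding genes outside chromosome 8 (82.7%). Other genes are not analysed here. At some genes this start is not the TSS of the ChIP table. In the decile with the highest GC content, a median of 79.0%, the median gene had 6.56 reads per 10M for PHC1-dFCS and 5.17 for PHC1, a relative log2 ratio of 0.061. In the lowest decile, with 40.7% GC, it had 7.07 for PHC1-dFCS and 6.18 for PHC1, a ratio of -0.074. The highest minus the lowest decile was thus 0.14 by GC content, beside 0.12 by RNAPII, 0.085 by H3K4me3, 0.091 by nuclear RNA, -0.072 by H3K27me3 and -0.045 by EZH2 over the same genes, each mark over input. By level these were 0.087, 0.077, -0.11 and -0.066 for RNAPII, H3K4me3, H3K27me3 and EZH2. The order of these spans depended on the scale. On deposited scores (4819 of these genes) the difference was 0.39 by GC content, beside -0.57 by H3K27me3 and -0.44 by EZH2 over input, and with the shared low values removed it was 0.22 by GC content and 0.22 by RNAPII. The input subtracted in the deposited scores also divides the marks. Spearman's rho with GC was -0.043 for PHC1-dFCS and -0.18 for PHC1, beside -0.14 for input and -0.19 for EZH2. The ratio itself had a rho of 0.14, positive on 21 of 22 chromosomes.

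By the number of CG pairs the highest decile (median 44 pairs in the sequence) had 0.062 and the lowest (2 pairs) -0.085. Among the genes at least 1.5-fold higher the 250 bases before the start held a median of 22 CG pairs (318 genes), among those at least 1.5-fold lower 12 (288 genes), and among all 10309 genes 18. TIAM1, with 36, and IFI44, with 0, lie toward either end of the range over all genes, whose 5th and 95th percentiles are 1 and 37. In the same bases, read on both strands, the Sp-type GC box GGGCGG was present in 66.7% of the decile with the highest ratios, 50.3% of the lowest decile and 59.0% of all. The TATA box letters TATAAA were present in 5.44%, 9.99% and 8.32% in that order, and CCAAT in 32.5%, 36.4% and 34.4%. These are letter matches and no evidence of a bound factor.

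GC content and the active marks overlap, since H3K4me3 over input had a rho of 0.37 with GC. Genes were cut into 5 bins of GC content. The highest minus the lowest quartile by RNAPII differed by 0.046 to 0.087 within the bins, beside 0.10 without them. For H3K4me3 the differences were 0.10, 0.042, 0.052, -0.00026 and 0.088 from the lowest to the highest bin, beside 0.082. For nuclear RNA they lay between 0.0064 and 0.088, beside 0.071, and for H3K27me3 between -0.050 and -0.0052, beside -0.052. In the other direction, the highest minus the lowest GC quartile was 0.068 to 0.11 within the 4 quartiles of H3K4me3 and 0.066 to 0.10 within those of RNAPII. The part of library preparation in the GC gradient was not tested.

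By chromosome the levels of PHC1-dFCS, PHC1 and the input varied together. Chromosome medians (23 chromosomes, Y left out) ranged from 6.03 to 7.78 reads per 10M for PHC1-dFCS, from 5.13 to 6.55 for PHC1 and from 4.90 to 6.71 in the input. All 3 were high on chromosomes 1, 5, 6 and 12 and low on 2, 4, 11 and 18. The relative log2 ratio lay between -0.045 on chromosome 21 (163 genes) and 0.047 on chromosome 22 (322 genes). Chromosome 2 (975 genes) alone had a 95% order-statistic interval over genes that left out 0, from 0.0076 to 0.047 around a median of 0.021. With 23 such intervals looked at, 1 that left out 0 does not set this chromosome apart. Chromosome X (610 genes) had -0.025, with 7.07 for PHC1-dFCS and 5.99 for PHC1.

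**Figure D4:**
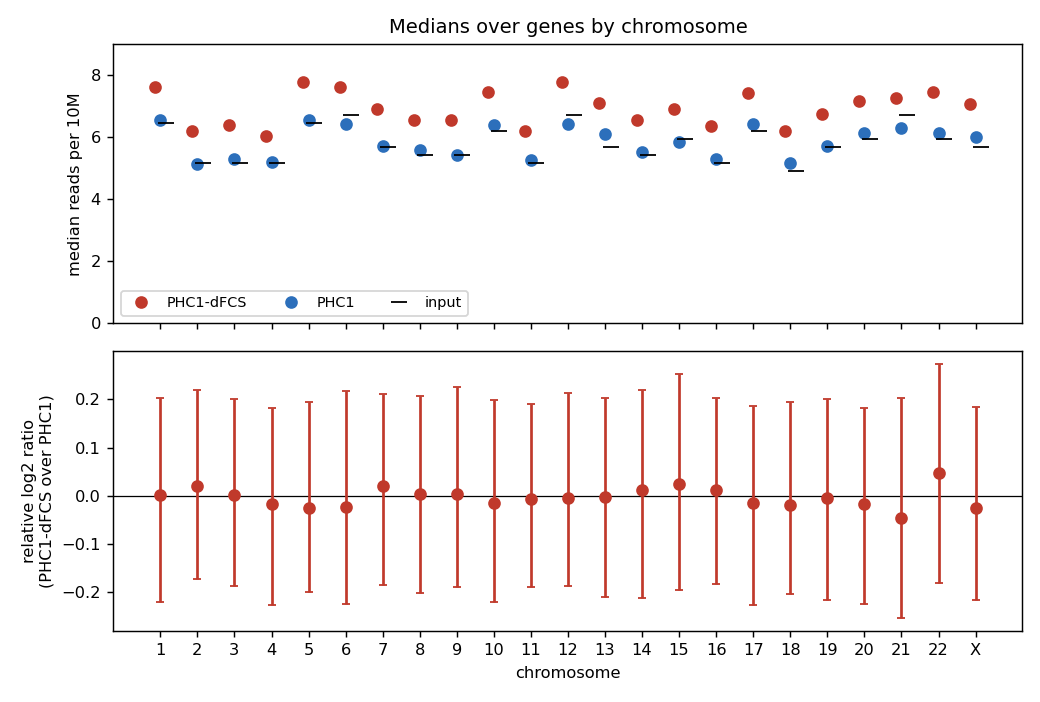
Top, median reads per 10M over the genes of each chromosome for PHC1-dFCS (red), PHC1 (blue) and input (black dash). Bottom, median relative log2 ratio with bars over the middle 50% of genes. The upper values move together and the lower medians lie between -0.045 and 0.047.

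Gene lists were read against all genes, of which 3.03% were at least 1.5-fold higher and 3.04% lower. No member of any list reached 2-fold. Of the 10 PRC2 genes, 8 had a relative log2 ratio above 0 and the median was 0.15 (middle 50% from 0.040 to 0.30), and none passed 1.5-fold. The order-statistic interval of this median over genes, from -0.13 to 0.47, included 0. The PRC2 median was 0.060 among genes at or above the median signal. It was 0.41 on deposited scores and 0.25 with the shared low values removed. EED, the subunit that binds H3K27me3, had 9.38 reads per 10M for PHC1-dFCS and 5.28 for PHC1, a ratio of 0.57, and the EZH2 gene had 8.48 and 5.13 in the same order, a ratio of 0.47. MTF2, a DNA-binding cofactor, had 8.50 for PHC1-dFCS and 8.41 for PHC1, a ratio of -0.23, and SUZ12, the scaffold, had 7.26 and 5.87, a ratio of 0.056. All 10 are expressed, at 45.4 CPM or more.

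Of the 21 PRC1 genes, 14 were above 0, with a median of 0.087. The order-statistic interval of this median over genes, from -0.0067 to 0.27, included 0. The PRC1 median was 0.0090 among genes at or above the median signal. It was 0.042 on deposited scores and 0.13 with the shared low values removed. Of the 21 genes, 1 passed 1.5-fold upward. This was PCGF5, a RING-partner subunit, with 6.53 for PHC1-dFCS and 3.49 for PHC1. PHC3, a paralog of PHC1, had 7.07 for PHC1-dFCS and 4.33 for PHC1, a ratio of 0.45. PCGF5 and PHC3 lie under the signal floor of the naming rule and were picked after their values were seen. PCGF6 had a ratio of 0.23, BCORL1, a BCOR paralog, had 7.26 for PHC1-dFCS and 8.49 for PHC1, the lowest ratio at -0.47, and RNF2, the ubiquitin ligase, had 0.017. The PHC1 gene itself is not analysed here.

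Families known as Polycomb targets came next. In these data the median H3K27me3 was 3.37 reads per 10M at HOX genes and 3.83 at developmental transcription factors, beside 4.18 over all genes. Nuclear RNA of at least 1 CPM was found for 20 of 22 HOX genes and 55 of 72 developmental factors. These 2 lists are therefore not a set of promoters high in H3K27me3 here. The 22 HOX genes, which set position along the body axis, had a median of 0.11, with 16 above 0, 1 at least 1.5-fold higher and none lower. The interval of the HOX median over genes, from -0.093 to 0.24, included 0. HOXB13 had 9.88 reads per 10M for PHC1-dFCS and 5.17 for PHC1, HOXC10 had 9.78 and 5.59, and HOXD8 had 6.56 and 7.10, each in that order, for ratios of 0.68, 0.55 and -0.36. The 72 developmental transcription factors had a median of 0.046 (-0.036 among genes at or above the median signal), with 39 above 0, 3 at least 1.5-fold higher and 3 lower (4.17% each way). Among those in the upper range of signal FOXF1 was at the top with a ratio of 0.60, and NEUROG1 and DLX5 at the bottom with -0.61 and -0.60. Olfactory receptor genes (57), silent in this line, had a median of -0.083, and zinc finger genes on chromosome 19 (183) -0.045, which was 0.034 among genes at or above the median signal.

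Stress-related lists were examined because the series title names stress-induced transcription. The labels give no stress treatment for these libraries. The 32 immediate early genes had a median of 0.0078, with none at least 1.5-fold higher and 2 lower (6.25%). MYC had 9.21 reads per 10M for PHC1-dFCS and 5.30 for PHC1, a ratio of 0.54, whereas NR4A1, a nuclear receptor, had 6.02 for PHC1-dFCS and 8.96 for PHC1, a ratio of -0.82. JUN had 6.90 for PHC1-dFCS and 8.53 for PHC1, a ratio of -0.55. The list thus had members at both ends.

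The 18 heat shock and chaperone genes had a median of -0.040 (0.019 among genes at or above the median signal, 0.52 on deposited scores) and a narrow middle 50%, from -0.087 to 0.031, with none past 1.5-fold. HSPA5, the main chaperone of the endoplasmic reticulum, had 7.08 for PHC1-dFCS and 6.29 for PHC1, a ratio of -0.080. The 18 genes of the integrated and endoplasmic reticulum stress responses had 0.049, again with none past 1.5-fold. ATF4, their central transcription factor, had 11.7 for PHC1-dFCS and 7.05 for PHC1, a ratio of 0.48. Of the 16 p53 target genes, 12 were above 0, with a median of 0.23 (1.18 on deposited scores, in the members where both were above 0). The interval of the median of 0.23 over genes, from -0.0041 to 0.38, included 0. TIGAR alone passed 1.5-fold (8.34 for PHC1-dFCS, 4.59 for PHC1). CDKN1A, the cell cycle inhibitor p21, had 9.73 for PHC1-dFCS and 6.85 for PHC1, a ratio of 0.26, and AEN, a nuclease, had -0.31.

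Among other lists, 44 cytoplasmic ribosomal protein genes had a median of -0.080, 55 mitochondrial ribosomal protein genes 0.0094, 25 proteasome genes -0.073, 20 splicing factors -0.0060, 16 housekeeping reference genes -0.0096, 292 solute carrier genes 0.012, 30 collagen genes 0.11 and 26 protocadherin genes -0.050. Each of these medians had an order-statistic interval over genes that included 0, for collagen genes from -0.029 to 0.20. The signs of 3 of the medians depended on the setting. Among genes at or above the median signal the proteasome list had 0.099 and the splicing list 0.047, and on deposited scores the proteasome, splicing and housekeeping lists had 0.25, 1.40 and 0.95. The ribosomal genes spanned RPS7 at 0.71 (9.73 for PHC1-dFCS, 4.99 for PHC1) and RPL11 at -0.71 (6.19 and 8.53 in the same order). SF3B2, a U2 snRNP splicing subunit, had 9.08 for PHC1-dFCS and 4.47 for PHC1, a ratio of 0.77, and SRSF3, a splicing regulator, had 8.14 and 9.64, a ratio of -0.49. TUG1, NEAT1, MALAT1 and OIP5-AS1, the 4 nuclear lncRNA genes measured, had 0.52, -0.062, -0.29 and -0.62, and 3 replication histone genes had a median of -0.11. Members of a list thus lay on both sides of 0 throughout.

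**Figure D5:**
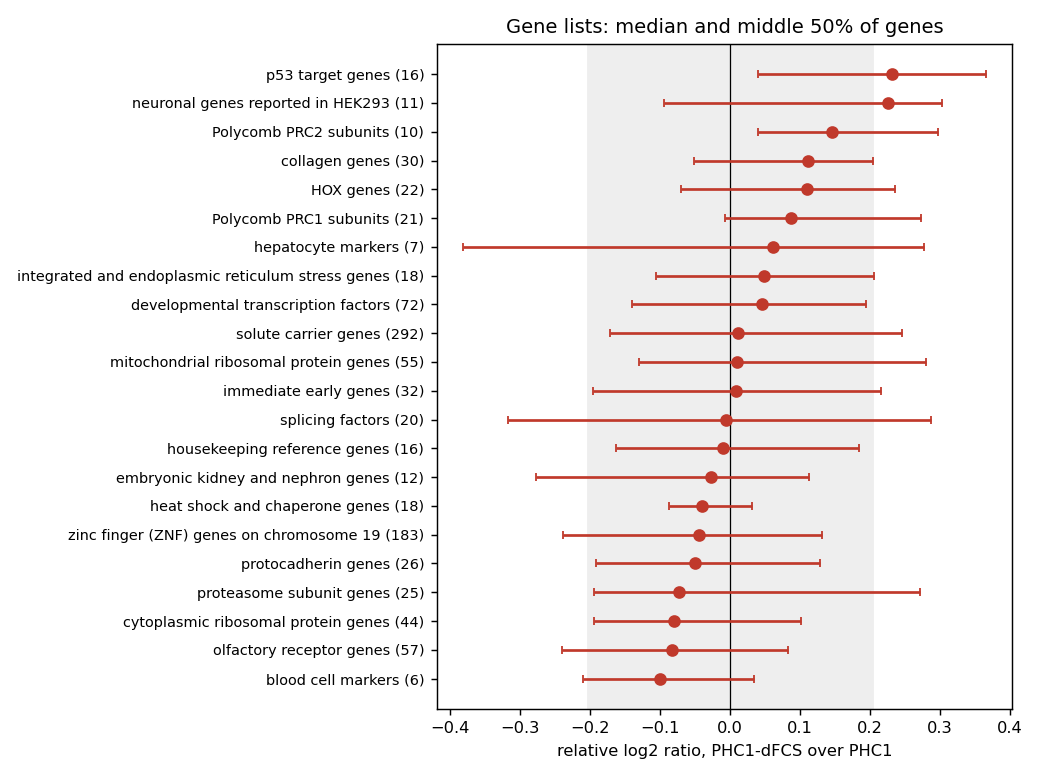
Median relative log2 ratio of each gene list with at least 6 measured genes (number in brackets), with bars over the middle 50% of its genes and the middle 50% of all genes shaded. List medians run from -0.100 to 0.23.

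Marker genes were read in nuclear RNA to check the labelled line. Nuclear RNA totals were 47187882 and 49626658 reads in genes. None of the 6 blood cell markers reached 1 CPM, nor did the 4 keratinocyte markers, and 1 of 7 hepatocyte and 1 of 4 fibroblast markers did. Neuronal genes reported in this line reached it in 6 of 11 and embryonic kidney genes in 7 of 12, with list medians of 1.10 and 3.45 CPM. NEFL, with 141 and 142 CPM, was the highest of the neuronal list. Over all 14432 genes, 8632 with H3K4me3 and 1519 without it reached 1 CPM, and the median was 17.0 CPM. Neither list thus reached 1 CPM more often than all genes, and these counts do not identify the line. The neuronal list had a median ratio of 0.23 and the kidney list -0.027, and the blood and hepatocyte markers had -0.100 and 0.061. Each of these medians had an interval over genes that included 0, for the neuronal list from -0.32 to 0.33.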

How the data were processed

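The deposited ChIP table gives, per gene, a score made by the authors at the TSS, with the input subtracted. Per the submitters' processing notes, reads were mapped to hg19 with Bowtie2 2.2.3 and handled with SAMtools 0.1.19 and R 3.3.0. The window around the TSS, duplicate handling and the joining of replicates are not given in the sources used here. For EZH2, H3K27me3, H3K4me3, RNAPII and input, every score was a difference of whole reads over whole library sizes of 32.5M to 43.1M (M, 1e6) (100% of genes, tolerance 1e-06 reads), with medians of 18 to 146 reads per TSS. The input was added back to the PHC1-dFCS and PHC1 columns. Their steps did not split into whole reads of 2 libraries. The deposited RNA table holds read counts by the authors (TopHat2 2.0.11), used as CPM, and 1 further value column was not used. The deposited PHC1 PAR-CLIP files give a coverage signal per cluster (Bowtie 0.12.7, R 3.2.2). It was summed per gene and scaled to 1e6.

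Python 3.11.15, numpy 2.4.6, pandas 2.3.3 and scipy 1.17.1 were used, and the steps were checked on simulated data. Gene names came from a RefSeq table for 14378 of 14432 Entrez numbers. Named genes were the 10 highest and 10 lowest relative ratios among genes at or above the median of the mean of both columns, the 10 highest of each protein over input, PHC1 (not analysed here), and up to 3 members at each end of each list. Of the lowest, 1 gene is not reported here. Members, lists and comparisons were chosen with earlier results of these data known. A median's interval is the 95% order-statistic one over genes. Alternatives were another pseudocount, genes in the upper range of signal, deposited scores, another offset, 1.5-fold, a running median, single RNA and PAR-CLIP libraries, the shared low values removed, strata of GC content, and the GC gradient under these settings. The last 3 were chosen after seeing the data.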

Additional observations from a re-analysis of the deposited data

How the results depend on the processing

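Directions by mark, RNA, PAR-CLIP, length and GC content had the same sign under every alternative tried, except H3K4me3 in 1 bin of GC content. Sizes moved. Some differences were smaller than their half-width, joined from the intervals of the 2 medians, so their sign is unsure. EZH2 over input had -0.027 (half-width 0.030) as reported. Of the 5 bins of GC content, low to high, nuclear RNA passed its half-width only in bin 1. Bins 2 to 5 had 0.025 (0.043), 0.0064 (0.046), 0.014 (0.043) and 0.040 (0.043). H3K27me3 passed it only in bin 3, with -0.030 (0.049), -0.027 (0.047), -0.040 (0.041) and -0.0052 (0.045) in the others. H3K4me3 had 0.042 (0.048) in bin 2 and -0.00026 (0.043) in bin 4. On deposited scores, H3K4me3 and RNAPII over input had 0.016 (0.20) and 0.059 (0.21) in the genes used for promoter GC. The offset of 0.25 was 0.23 with a pseudocount of 0.5, 0.82 on deposited input-subtracted scores of the 6903 genes where both were above 0, and 0.13 with the shared low values removed. The counts of 10 genes higher and 7 lower past 2-fold became 5 and 3 with a pseudocount of 0.5, 438 and 439 at 1.5-fold, 1606 and 1286 on deposited scores, and 574 and 629 with the shared low values removed, and 4 were lower among genes at or above the median signal. List members past 2-fold, 0 as reported, numbered 53 at 1.5-fold, 202 on deposited scores and 73 with the shared values removed. Ratios on deposited scores divide small differences, and the input they subtract also divides the marks over input. Removing the shared low values also changed the pseudocount, so the parts of these changes were not separated. Of 22 list medians, 16 kept their sign in every setting that gave them a value. Signs changed for developmental factors (-0.036), heat shock (0.019), splicing (0.047), proteasome (0.099) and chromosome 19 zinc finger genes (0.034) among genes at or above the median signal, for heat shock (0.52), housekeeping (0.95), splicing (1.40) and proteasome genes (0.25) on deposited scores, and for housekeeping genes (0.0052) with the shared values removed.

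Highest minus lowest decile on deposited scores was -0.55 for H3K27me3, -0.42 for EZH2, 0.23 for nuclear RNA, 0.24 for RNA per kb, 0.11 for gene length, -0.051 for the mean of both columns, 0.19 for PAR-CLIP and -0.15 for PAR-CLIP over RNA and 0.39 for GC content, and the chromosome span was 0.41. With the shared low values removed it was -0.12 for H3K27me3, -0.073 for EZH2, 0.18 for H3K4me3, 0.20 for RNAPII, 0.15 for nuclear RNA, 0.17 for RNA per kb, 0.086 for gene length, 0.20 for the mean of both columns, 0.13 for PAR-CLIP and 0.22 for GC content, with a chromosome span of 0.17. Among genes at or above the median signal it was -0.058 for EZH2, 0.094 for nuclear RNA, -0.017 for the mean of both columns, 0.10 for PAR-CLIP and 0.18 for GC content. The cause of these changes was not tested. Leaving out either nuclear RNA library gave 0.061 to 0.072 for RNA and 0.066 to 0.067 for RNA per kb. Leaving out either PAR-CLIP library gave 0.066 for PAR-CLIP coverage and -0.041 to -0.022 over RNA.

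No paired analysis was possible because the authors' columns join both replicates of each protein and could not be split. If the shared low values stood for 10 reads in each of 2 libraries, the median gene held about 20 reads per TSS and library. Of these, 10 would not be real reads if 10 were added. Such a depth limits what single genes can show.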
